A study of Homo sapiens with 6 samples.

Results

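The TIP60, SRCAP and INO80 chromatin complexes and the variant H2A histones they handle were followed in Calu3 cells treated with siRNA against BRD8, itself a TIP60 subunit. The set holds 36 of the 26364 genes in the deposited table, taken by symbol: BRD8, 30 other subunit genes, and 5 genes of the H2A variant group. That group is H2AFZ, H2AFV, H2AFX, H2AFY and the chaperone gene ANP32E. Total RNA of Calu3 cells was sequenced from a single end. Calu3 is an established human line from a lung adenocarcinoma and keeps features of airway epithelium. One group of 3 libraries received a negative control siRNA (siNC), the other group of 3 an siRNA against BRD8 (siBRD8), each labelled with 20 nmol and delivered with the same lipid reagent. All libraries thus share transfection and the parent line, whose genotype the labels do not detail, and no untransfected sample was analysed here. Whether each library had a culture of its own is not in the labels, and the p-values therefore measure a spread among libraries that may be technical. As 1 siRNA reagent was used against BRD8, loss of the target and any other effect of the reagent cannot be told apart.

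In chromatin, the variant H2A.Z takes the place of canonical H2A at many promoters and regulatory regions. The SRCAP complex and the EP400-containing TIP60 complex exchange H2A.Z into nucleosomes, and TIP60 also acetylates H4, H2A and H2A.Z through its catalytic subunit KAT5. INO80 slides nucleosomes and has been linked to the removal of H2A.Z, and ANP32E is a chaperone that takes H2A.Z out. The 3 complexes are built on a common base of the ATPases RUVBL1 and RUVBL2 with actin-related proteins. H2AX is the variant phosphorylated beside DNA breaks, and macroH2A, encoded by H2AFY, carries a large extra domain and is often found in repressed chromatin.

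The control libraries held 33640814 to 37081766 reads assigned to genes and the BRD8 siRNA libraries 34427104 to 37896467. The values are normalized counts, which are reads per gene over the size factor of the library, and 3 reads correspond to 2.84 to 3.24 normalized counts. Control library 2 stood apart on the second principal component, which held 20.6% of the variance against 53.1% for the first, so calls that change without it are given both ways. The markers of the labelled line were present, with mean levels of 9793 to 162944 normalized counts over 7 epithelial genes, whereas the shared extraction text speaks of HBE cells. Of these 7, CFTR (log2 fold change 0.60), MUC1 (0.57), CDH1 (0.49) and KRT8 (0.41) were higher after BRD8 siRNA and none was lower, with a median of 0.41. The share called was 57.1%, against 19.0% of all genes tested. Of the other cell types, the endothelial markers PECAM1 and CDH5 summed to at most 3.79 normalized counts in any library and the blood markers CD3E and PTPRC were at or near 0. Of the fibroblast markers, COL1A2 was at 0 in all libraries and PDGFRB at or near 0, whereas COL1A1 was at 182 to 198 in control and 153 to 169 in BRD8 siRNA libraries (limma adjusted p = 0.190). The monocyte marker CD14 averaged 31.9 normalized counts. The basal airway markers KRT5, KRT14 and TP63 summed to 351 to 525 normalized counts in control and 821 to 969 in BRD8 siRNA libraries. KRT14 and TP63 were higher by the test, or 66.7% of that list against the same 19.0%. The part of the epithelial and basal markers in the results below was not tested.

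BRD8 was measured at 2751, 2928 and 3067 normalized counts in control libraries 1 to 3 and 1312, 1084 and 1156 in BRD8 siRNA libraries 1 to 3. Every BRD8 siRNA library lay below every control library. The mean went from 2916 ± 158 to 1184 ± 117 (mean ± SD, n = 3 each), so the transcript fell by 59.4% (log2 fold change -1.30, SE 0.0904, limma adjusted p = 1.13e-04). Only 132 bases, 1.87% of its annotated exon bases, overlap another gene, the mitotic kinesin gene KIF20A on the opposite strand. BRD8 carries a bromodomain, which binds acetylated lysine, and it was also below the control in all 17 alternative analyses.

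The loss of BRD8 transcript was accompanied by few and small changes in the other subunits, and the share changed was close to that of all genes. Of the 30 other subunit genes, 4 were lower and 1 was higher by the test (limma over 15354 genes averaging at least 10 normalized counts, adjusted p under 0.05). The 5 called make up 16.7%, against 19.0% of all genes tested, of which 10.1% were higher and 8.93% lower. The median log2 fold change of these subunits was -0.12, against -0.01 for all genes tested. By complex the median was 0.07 over 11 genes of TIP60 alone, -0.13 over 3 of SRCAP alone, -0.21 over 3 shared by TIP60 and SRCAP, -0.20 over 3 shared by all 3 complexes and -0.10 over 10 of INO80 alone. Among the 5 genes of the H2A variant group, 2 were lower and none was higher, and the median was -0.22. At an unadjusted p under 0.05, 3 of these 5 were lower and none higher, against 33.1% of all genes in either direction. For the same 5 genes edgeR and DESeq2 each gave 2 lower and none higher, while they called 19.3% and 21.3% of all genes. All 36 genes passed the filter on low values.

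Apart from BRD8 no member had an estimated change of 2-fold. The log2 fold changes of the other 35 genes ran from -0.52 for MBTD1 to 0.25 for KAT5, which did not pass, and MORF4L2, which did. For 15 of the 35 the groups did not overlap, which is 42.9% against 36.8% of all genes tested. In the subunits, 8 of these lay lower and 4 higher, and in the H2A group 3 lay lower. Of all 15354 genes tested, 2755 lay lower and 2900 higher without overlap. The summed level of the 30 subunits was 72178 to 73981 normalized counts in control and 72475 to 72879 in BRD8 siRNA libraries, so the groups overlapped. Within it, the 11 genes of TIP60 alone summed higher, at 38232 to 39770 in control and 41053 to 41766 in BRD8 siRNA libraries. MORF4L1 (mean 12691 in control and 14144 in BRD8 siRNA libraries) and MORF4L2 (12636 and 15000) held the largest counts among them. They dominate this sum, which therefore does not show the direction of the other genes of TIP60 alone. Of the 11 genes, 6 had a log2 fold change above 0 and 5 below 0. The 3 genes of TIP60 and SRCAP summed lower, at 3046 to 3267 against 2676 to 2904. So did the 3 of all 3 complexes, at 14881 to 17217 against 14060 to 14575. Sums for SRCAP alone and for INO80 alone overlapped. For the 5 genes of the H2A group the sum was 29349 to 31923 in control and 26107 to 27384 in BRD8 siRNA libraries, and these ranges did not overlap.

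**Figure D1:**
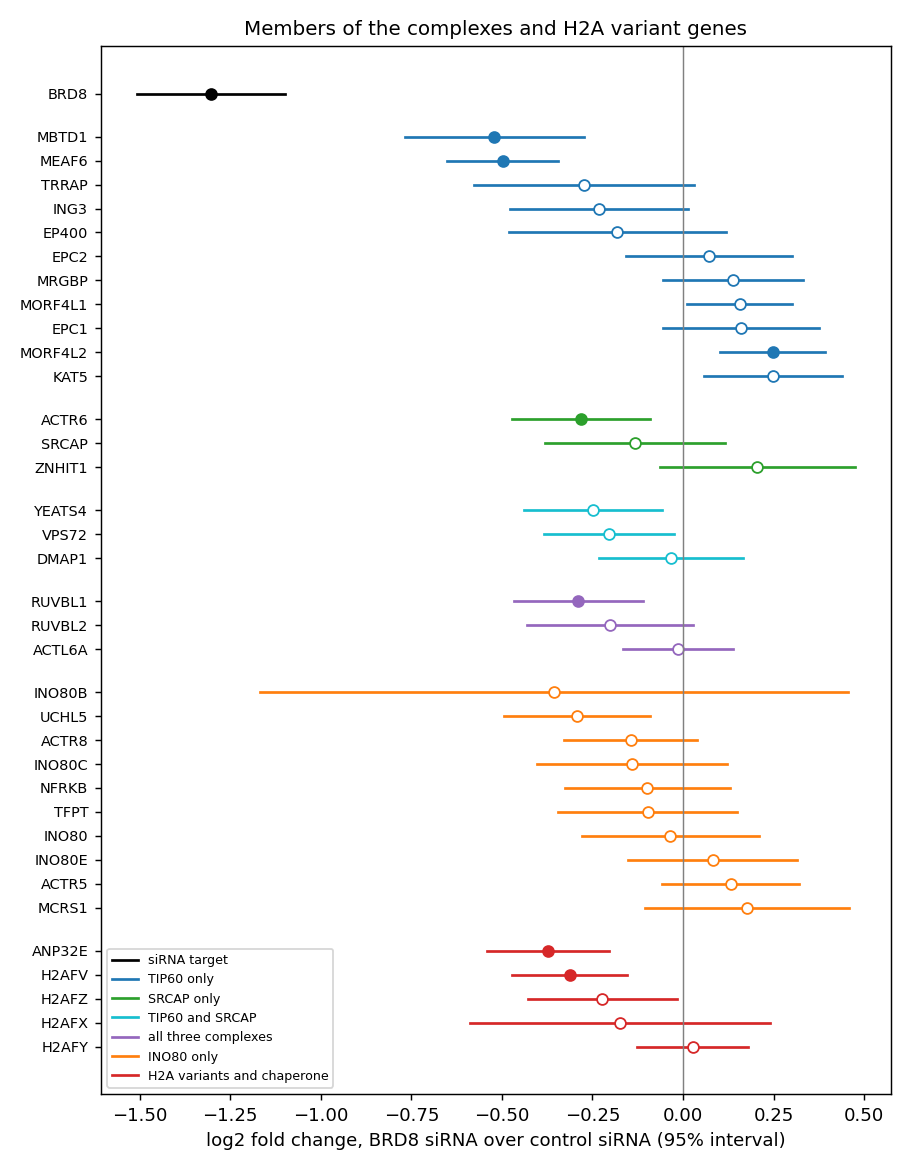
Log2 fold change (BRD8 siRNA over control siRNA, horizontal axis) with its 95% interval from limma for the 36 genes, grouped by complex. Filled circles mark genes past an adjusted p of 0.05: BRD8 at -1.30 lies far from all others, which sit between -0.52 and 0.25.

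The count of changed subunits depended on the libraries used. Without control library 2, 5 subunits were higher and 8 lower, or 43.3%, but 34.1% of all genes were then called too. No subunit was higher without any other library in turn. The number of lower subunits was 3 when control library 1 was dropped, 1 when control library 3 was, and 2 when any 1 of the BRD8 siRNA libraries was. The H2A group had 2 lower genes without control library 1 or 2 or BRD8 siRNA library 1, 1 without BRD8 siRNA library 2 or 3, and 0 without control library 3. Dropping any library other than control library 2 also lowered the calls over all genes, from 1549 higher and 1371 lower. They were 1065 and 804 without control library 1, and 832 and 528 without control library 3. Without BRD8 siRNA libraries 1, 2 and 3 in turn they were 1142 and 838, 894 and 675, and 871 and 695.

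Within TIP60, the subunits with the largest change were MBTD1 and MEAF6, both lower. MEAF6, a small scaffold protein that TIP60 shares with the KAT6A, KAT6B and KAT7 acetyltransferase complexes, was measured at 2216, 2258 and 2178 normalized counts in control libraries 1 to 3 and 1619, 1541 and 1552 in BRD8 siRNA libraries 1 to 3. Both groups were tight and lay well apart. Its mean went from 2217 ± 39.8 to 1570 ± 42.1, and it fell by 29.2% (log2 fold change -0.50, SE 0.0678, limma adjusted p = 0.00186). MEAF6 passed the threshold in each of the 17 alternative analyses, with adjusted p-values up to 0.0156 among them. No other member except BRD8 did so. In the authors' deposited table its log2 fold change is -0.50 with an adjusted p of 4.91e-08.

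MBTD1, a reader of methylated H4 lysine 20 that joins TIP60 through the EPC1 subunit, was measured at 1902, 1504 and 1962 normalized counts in control libraries 1 to 3 and 1238, 1184 and 1296 in BRD8 siRNA libraries 1 to 3. The groups did not overlap, although control library 2 lay far below the other controls. The mean went from 1790 ± 249 to 1240 ± 56.0, so MBTD1 fell by 30.7% (log2 fold change -0.52, SE 0.108, limma adjusted p = 0.0117). The call was absent without control library 3 alone among the alternatives (adjusted p = 0.0599).

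**Figure D2:**
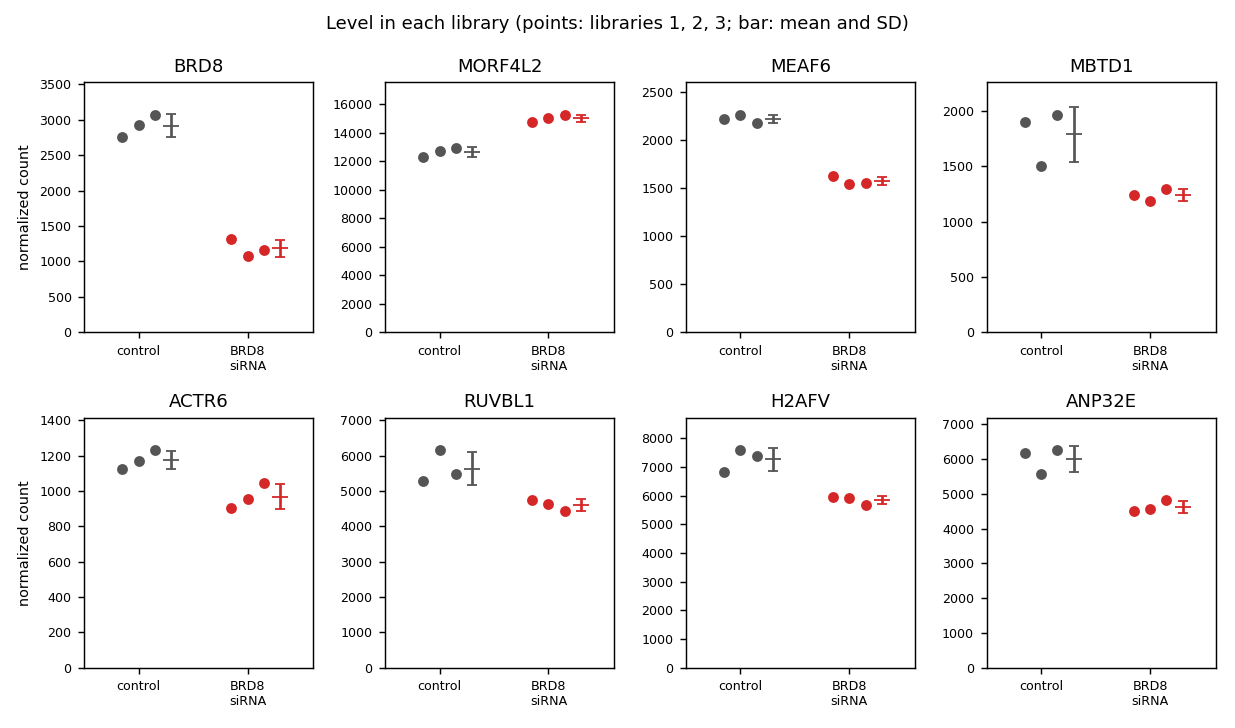
Normalized count (vertical axis, from 0) in each library for BRD8 and the 7 other members called, with mean and SD (n = 3) beside the points. Control libraries are grey and BRD8 siRNA libraries red; in each panel the groups do not overlap, as for MEAF6 with 2178 to 2258 in control and 1541 to 1619 in BRD8 siRNA libraries.

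The upstream sequences of both genes are shown because they are the TIP60 subunits that moved most. Each holds the 250 bases before the RefSeq transcription start (GRCh38.p14, minus strand), at chr1:37514767-37515016 for MEAF6 and chr17:51260050-51260299 for MBTD1. Capitals mark matches on either strand to the promoter element CCAAT or to the ETS motif, whose letters are CCGGAAG.
MEAF6: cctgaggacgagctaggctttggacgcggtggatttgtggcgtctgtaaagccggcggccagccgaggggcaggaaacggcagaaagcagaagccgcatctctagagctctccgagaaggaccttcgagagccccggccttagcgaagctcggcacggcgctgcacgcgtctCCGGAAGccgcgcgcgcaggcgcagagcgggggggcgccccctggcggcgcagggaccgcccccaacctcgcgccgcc
MBTD1: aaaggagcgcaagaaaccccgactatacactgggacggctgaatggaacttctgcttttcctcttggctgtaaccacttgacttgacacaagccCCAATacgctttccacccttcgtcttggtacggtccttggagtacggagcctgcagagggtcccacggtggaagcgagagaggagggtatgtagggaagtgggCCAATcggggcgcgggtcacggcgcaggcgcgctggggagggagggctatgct
The MEAF6 window holds 1 ETS match and no CCAAT match, and the MBTD1 window 2 CCAAT matches and no ETS match.

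One TIP60 subunit rose. MORF4L2, a paralog of the chromodomain protein MORF4L1 that lacks the chromodomain, was measured at 12255, 12736 and 12917 normalized counts in control libraries 1 to 3 and 14772, 14998 and 15231 in BRD8 siRNA libraries 1 to 3. All BRD8 siRNA libraries were above all controls. On average it went from 12636 ± 342 to 15000 ± 229.7, a rise of 18.7% (log2 fold change 0.25, SE 0.0640, limma adjusted p = 0.0281). This call held without control library 2 and was lost without each of the others, at an adjusted p of 0.0838 (control library 1), 0.100 (control library 3), 0.0664 (BRD8 siRNA library 1), 0.109 (BRD8 siRNA library 2) and 0.116 (BRD8 siRNA library 3). MORF4L1, which binds methylated H3 lysine 36, stood at 12389, 13063 and 12622 normalized counts in control libraries 1 to 3 and 14364, 14137 and 13930 in BRD8 siRNA libraries 1 to 3. Its groups did not overlap either, but its log2 fold change of 0.16 (95% interval 0.01 to 0.30) missed the threshold (adjusted p = 0.124). It passed without control library 2 (0.0452) and with length and GC trends taken out (0.0376). GENCODE names 6 pseudogenes after MORF4L1 and 1 after MORF4L2, so reads of these genes may be split with copies.

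KAT5, the acetyltransferase itself, was measured at 552, 581 and 534 normalized counts in control libraries 1 to 3 and 685, 669 and 624 in BRD8 siRNA libraries 1 to 3. All 3 BRD8 siRNA libraries lay above the controls, yet the log2 fold change of 0.25 (95% interval 0.06 to 0.44) did not pass (adjusted p = 0.0709), except without control library 2 (0.0289). In GENCODE 38.6% of its exon bases lie opposite RNASEH2C, a subunit gene of ribonuclease H2, and strand was not kept by the kit. RNASEH2C had a log2 fold change of 0.16 (95% interval -0.08 to 0.40). The same limit holds for other members, whose largest opposite-strand overlaps were 28.0% for H2AFY (C5orf66) and 21.5% for TFPT (PRPF31). Next came 18.8% for INO80E (HIRIP3), 16.3% for MRGBP (OGFR-AS1) and 12.7% for TFPT (NDUFA3).

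The very large scaffold TRRAP, which binds transcription activators, was measured at 2022, 1439 and 1935 normalized counts in control libraries 1 to 3 and 1613, 1344 and 1470 in BRD8 siRNA libraries 1 to 3. Control library 2 lay among the BRD8 siRNA libraries, and the groups overlapped. The log2 fold change was -0.27 (95% interval -0.58 to 0.03), with adjusted p = 0.192. Without control library 2 it was -0.43 (adjusted p = 0.00331), and with length and GC trends taken out -0.22 (0.0295). EP400, the ATPase that drives the H2A.Z exchange of TIP60, was measured at 3716, 2509 and 3351 normalized counts in control libraries 1 to 3 and 2774, 2681 and 2884 in BRD8 siRNA libraries 1 to 3. Here control library 2 lay below all BRD8 siRNA libraries and the other controls above them. Its log2 fold change was -0.18 (95% interval -0.48 to 0.12) with all libraries and -0.34 without control library 2 (adjusted p = 0.00428). EP400 passed in no other alternative analysis.

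The other TIP60 subunits did not pass with all libraries. The paralogs EPC1 and EPC2, which tie the catalytic module to the rest of the complex, had log2 fold changes of 0.16 (95% interval -0.05 to 0.37) and 0.07 (95% interval -0.16 to 0.30). Without control library 2, EPC1 stood at 0.09 and EPC2 at -0.02. EPC1 passed only with length and GC trends taken out (adjusted p = 0.0496). ING3, a reader of trimethylated H3 lysine 4, had -0.23 (95% interval -0.48 to 0.01), with a level of only 441 normalized counts on average. MRGBP, the partner of the MORF4L proteins, had 0.14 (95% interval -0.05 to 0.33). None of these 4 intervals reached a 2-fold change.

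Of the genes of the SRCAP complex alone, ACTR6 was lower. This actin-related protein is needed for H2A.Z exchange and was measured at 1126, 1169 and 1230 normalized counts in control libraries 1 to 3 and 906, 954 and 1044 in BRD8 siRNA libraries 1 to 3. The groups did not overlap, but the distance between them was smaller than in MEAF6. Its average moved from 1175 ± 52.1 to 968 ± 70.3 (log2 fold change -0.28, SE 0.0840, limma adjusted p = 0.0474). ACTR6 stood at the edge of the threshold and missed it in edgeR (adjusted p = 0.0529), with TMM scaling (0.0534), with quantile normalization (0.0619) and with no filter on low values (0.0585). It was also lost without control library 1 (0.0768) or 3 (0.191) and without BRD8 siRNA library 1 (0.137), 2 (0.144) or 3 (0.0654).

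The ATPase SRCAP, which gives the complex its name, was measured at 3803, 3037 and 3705 normalized counts in control libraries 1 to 3 and 3581, 2966 and 3057 in BRD8 siRNA libraries 1 to 3. The groups overlapped, with a log2 fold change of -0.13 (95% interval -0.38 to 0.12). Of its annotated exon bases 74.1% are shared with an overlapping gene model on the same strand, AC106886.5. The zinc finger subunit ZNHIT1 stood at 1402, 1778 and 1339 normalized counts in control libraries 1 to 3 and 1654, 1902 and 1626 in BRD8 siRNA libraries 1 to 3. Its log2 fold change was 0.21 (95% interval -0.06 to 0.47), and it passed only without control library 2, at 0.33 (adjusted p = 0.0119).

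Of the 3 subunits common to TIP60 and SRCAP, YEATS4 and VPS72 lay lower without passing, and the groups of DMAP1 overlapped. YEATS4, a reader of acylated histones, was measured at 1316, 1298 and 1263 normalized counts in control libraries 1 to 3 and 989, 1136 and 1146 in BRD8 siRNA libraries 1 to 3, and its groups did not overlap. The log2 fold change was -0.25 (95% interval -0.44 to -0.06), with adjusted p = 0.0698, 0.0487 without control library 2 and 0.00824 with length and GC trends taken out. VPS72, which holds the H2A.Z-H2B dimer, was measured at 1144, 1225 and 1120 normalized counts in control libraries 1 to 3 and 1022, 1051 and 954 in BRD8 siRNA libraries 1 to 3. There too all BRD8 siRNA libraries were below the controls, with a log2 fold change of -0.21 (95% interval -0.38 to -0.03) and adjusted p = 0.106. DMAP1, named for its binding to the DNA methyltransferase DNMT1, had -0.03 (95% interval -0.23 to 0.16). In GENCODE 40.5% of the VPS72 exon bases are shared with TMOD4 on the same strand. At an unadjusted p under 0.05, YEATS4 and VPS72 were lower and none was higher, while edgeR and DESeq2 each called 0 of the 3. Of all genes, 33.1% passed at that unadjusted p, 19.3% in edgeR and 21.3% in DESeq2.

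Among the parts built into all 3 complexes, RUVBL1 fell. This AAA+ ATPase, which forms a ring with RUVBL2, was measured at 5280, 6153 and 5476 normalized counts in control libraries 1 to 3 and 4747, 4633 and 4436 in BRD8 siRNA libraries 1 to 3. Control library 2 was the highest of all, and the groups did not overlap. On average it moved from 5636 ± 458 to 4605 ± 157 (log2 fold change -0.29, SE 0.0787, limma adjusted p = 0.0344). The call was lost with quantile normalization (adjusted p = 0.0602), without control library 3 (0.102) and without BRD8 siRNA library 1 (0.0689), 2 (0.103) or 3 (0.131). RUVBL2 was measured at 4406, 5663 and 4950 normalized counts in control libraries 1 to 3 and 4213, 4659 and 4139 in BRD8 siRNA libraries 1 to 3. Its groups overlapped and its log2 fold change was -0.20 (95% interval -0.43 to 0.03), or -0.11 without control library 2. ACTL6A, an actin-related protein also found in the BAF remodellers, was measured at 5195, 5401 and 5655 normalized counts in control libraries 1 to 3 and 5314, 5283 and 5484 in BRD8 siRNA libraries 1 to 3. Its groups overlapped, with a log2 fold change of -0.01 (95% interval -0.17 to 0.14).

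Of the 10 genes of INO80 alone, 0 passed the limma threshold, against 19.0% of all genes tested. At an unadjusted p under 0.05 there was 1 lower and none higher, against 33.1% of all genes in either direction. The 1 lower was UCHL5, which edgeR and DESeq2 also called. UCHL5, a deubiquitinase that INO80 shares with the proteasome, was measured at 1936, 1646 and 1986 normalized counts in control libraries 1 to 3 and 1471, 1507 and 1557 in BRD8 siRNA libraries 1 to 3. The groups did not overlap, and its log2 fold change of -0.29 (95% interval -0.49 to -0.09) came with adjusted p = 0.0506. That adjusted p was 0.0470 in edgeR, 0.0252 in DESeq2, 0.0480 at a mean of at least 50 and 0.00223 without control library 2. UCHL5 passed in 7 of the 17 alternative analyses. It missed without control library 1 (0.142) or 3 (0.206) and without BRD8 siRNA library 1 (0.133), 2 (0.139) or 3 (0.113). TMM scaling (0.0515), quantile normalization (0.0580) and no filter on low values (0.0590) also left it short.

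The ATPase INO80 itself was measured at 830.3, 652 and 808 normalized counts in control libraries 1 to 3 and 778, 706 and 741 in BRD8 siRNA libraries 1 to 3, and its log2 fold change was -0.03 (95% interval -0.28 to 0.21). The actin-related proteins ACTR5 and ACTR8 had 0.13 (95% interval -0.06 to 0.32) and -0.14 (95% interval -0.33 to 0.04). Their groups did not overlap, in opposite directions, without passing. INO80C and INO80E had -0.14 (95% interval -0.40 to 0.12) and 0.08 (95% interval -0.15 to 0.32). INO80C stood at -0.0090, TFPT at -0.0098 and INO80E at 0.16 without control library 2. NFRKB, TFPT and MCRS1, metazoan or regulatory subunits, had -0.10 (95% interval -0.33 to 0.13), -0.10 (95% interval -0.34 to 0.15) and 0.18 (95% interval -0.11 to 0.46). MCRS1 passed only without control library 2, at 0.29 (adjusted p = 0.0494), and TFPT only with length and GC trends taken out, at -0.23 (0.0199).

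INO80B was the least certain member. It was measured at 14.2, 7.56 and 15.2 normalized counts in control libraries 1 to 3 and 7.28, 9.48 and 10.6 in BRD8 siRNA libraries 1 to 3, far below every other subunit. Its log2 fold change was -0.36 (95% interval -1.17 to 0.46), the only interval apart from that of BRD8 to reach a 2-fold change. Of its exon bases 72.0% are shared with the readthrough gene INO80B-WBP1, which the table lists at 0 in all libraries. WBP1, the neighbour in that readthrough, averaged 242 normalized counts.

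In the H2A variant group, H2AFV and ANP32E fell. H2AFV encodes H2A.Z.2 and was measured at 6828, 7581 and 7392 normalized counts in control libraries 1 to 3 and 5949, 5913 and 5676 in BRD8 siRNA libraries 1 to 3. The BRD8 siRNA libraries were tight and all below the controls. The mean went from 7267 ± 392 to 5846 ± 148, so H2AFV fell by 19.6% (log2 fold change -0.31, SE 0.0701, limma adjusted p = 0.0159). The call was lost without control library 3 (adjusted p = 0.0857) and BRD8 siRNA library 2 (0.0607) or 3 (0.0781). H2AFZ, which encodes the near-identical H2A.Z.1, was measured at 7716, 9508 and 8606 normalized counts in control libraries 1 to 3 and 7549, 7637 and 6896 in BRD8 siRNA libraries 1 to 3. Its groups did not overlap, but the gap between control library 1 and BRD8 siRNA library 2 was small beside the spread of the controls. The log2 fold change was -0.22 (95% interval -0.43 to -0.02), with adjusted p = 0.123, and -0.15 (0.152) without control library 2. The intervals of the 2 paralogs overlap, and the difference between them was not tested. GENCODE names 6 pseudogenes after H2AFZ and 1 after H2AFV.

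ANP32E, the chaperone that removes H2A.Z, was measured at 6165, 5558 and 6250 normalized counts in control libraries 1 to 3 and 4511, 4550 and 4819 in BRD8 siRNA libraries 1 to 3. Every BRD8 siRNA library was below every control. The mean went from 5991 ± 377 to 4627 ± 168, so ANP32E fell by 22.8% (log2 fold change -0.37, SE 0.0742, limma adjusted p = 0.00983). It lost the call only without control library 3 (adjusted p = 0.0617). H2AFX was measured at 573, 664 and 575 normalized counts in control libraries 1 to 3 and 389.9, 675 and 580.0 in BRD8 siRNA libraries 1 to 3. BRD8 siRNA library 1 lay far below the other 2 of its group, and the groups overlapped, with a log2 fold change of -0.17 (95% interval -0.59 to 0.24). Without that library the sign turned, to 0.05. H2AFY was measured at 8067, 8611 and 8033 normalized counts in control libraries 1 to 3 and 8415, 8609 and 8135 in BRD8 siRNA libraries 1 to 3, again with overlapping groups and a log2 fold change of 0.03 (95% interval -0.13 to 0.18).

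The falls in this group came with a fall of proliferation genes. Of 22 such genes 18 were lower and none was higher, or 81.8%, against 19.0% of all genes tested. Their median log2 fold change was -0.58. At an unadjusted p under 0.05, 20 were lower and none higher, and edgeR called 18 and DESeq2 20, all lower. The shares of all genes were 33.1%, 19.3% and 21.3% in either direction. Leaving out 1 library at a time left 13 to 18 lower, while 528 to 2784 of all genes were lower. The summed level of these 22 genes was 101901 to 122409 normalized counts in control and 64483 to 67564 in BRD8 siRNA libraries. Among them were the mitotic cyclin gene CCNB2 (-0.89 on the log2 scale), the survivin gene BIRC5 (-0.78), the checkpoint kinase gene BUB1 (-0.75) and the topoisomerase gene TOP2A (-0.97). Their part in the values of H2AFV, H2AFZ and ANP32E was not tested. In these bulk libraries, fewer cells in cycle and less RNA per cell cannot be told apart.

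The upstream windows of the H2A.Z genes are shown as the paralog pair at the centre of this group, in the same form as above. They lie on the minus strand at chr7:44848088-44848337 (H2AFV, now named H2AZ2) and chr4:99950276-99950525 (H2AFZ, now H2AZ1).
H2AFV: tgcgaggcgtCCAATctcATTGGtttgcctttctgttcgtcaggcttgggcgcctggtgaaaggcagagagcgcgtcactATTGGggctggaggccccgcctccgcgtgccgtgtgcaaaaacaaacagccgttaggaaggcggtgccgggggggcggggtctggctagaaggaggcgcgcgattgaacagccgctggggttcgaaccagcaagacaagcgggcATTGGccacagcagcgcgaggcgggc
H2AFZ: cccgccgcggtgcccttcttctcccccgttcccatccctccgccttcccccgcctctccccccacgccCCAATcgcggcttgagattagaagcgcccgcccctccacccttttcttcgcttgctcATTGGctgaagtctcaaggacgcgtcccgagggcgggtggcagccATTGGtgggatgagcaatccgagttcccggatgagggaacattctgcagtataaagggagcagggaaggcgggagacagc
The H2AFV window holds 4 and the H2AFZ window 3 matches to CCAAT on either strand, and neither holds an ETS match.

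RefSeq promoter windows were found for 30 of the 36 genes, 38 windows in all. Motifs were searched on both strands. A CCAAT match was in 15 of them, or 39.5%, against 32.0% of all 35116 windows. All 4 H2A variant genes had one. The ETS motif CCGGAAG was in 10 windows, or 26.3%, against 8.52% of all. It was found for KAT5, EP400, MEAF6, ZNHIT1, ACTR6, DMAP1, INO80B, INO80E, TFPT and H2AFY. The cell cycle element TTTGAA was in 5 windows, 13.2% against 13.3% of all, and that for H2AFX was the only one among the H2A genes. The cAMP response element TGACGTCA was in 0 of the 38, and in 1.65% of all. These are matches of letters, described without a test, and windows of genes with several starts count separately.

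The place of control library 2 followed transcript length among the members. Set against the mean of control libraries 1 and 3, its log2 level was -0.49 for EP400, -0.46 for TRRAP, -0.36 for MBTD1 and -0.31 for SRCAP, all long transcripts. It was 0.38 for ZNHIT1, 0.28 for RUVBL2 and 0.22 for H2AFZ, which are short. INO80C, of 3965 bases, had the highest value of all, 0.39, and does not follow this order. The 6 longest members, of 5613 to 13120 exon bases, were all below 0. Of the 6 shortest, of 979 to 1560 bases, 5 were above 0, and the exception was INO80B. Spearman's rho between length and this difference was -0.60 over the 36 members and -0.54 over 14822 genes with a length, points that share the same 3 libraries. With the trend of each library with length and GC content taken out, 3 subunits were higher and 10 lower, and 4 of the 5 genes of the H2A group were lower, but calls also rose to 34.7% of all genes. In that analysis H2AFZ had -0.28 (adjusted p = 0.00459), H2AFX -0.31 (0.0174), RUVBL2 -0.32 (0.00121) and VPS72 -0.30 (0.00344).

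**Figure D3:**
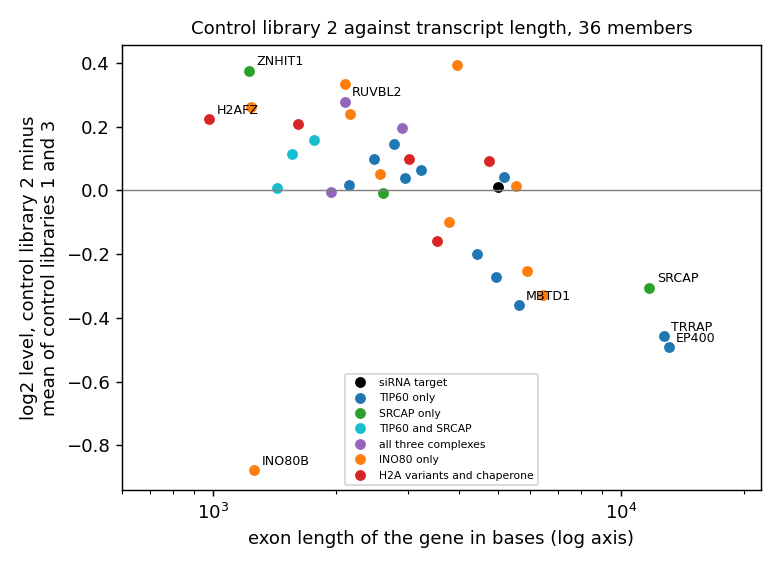
Log2 level of control library 2 minus the mean of control libraries 1 and 3 (vertical axis) against exon length in bases (log axis), 1 point per member, coloured by complex. EP400 and TRRAP at the long end lie at -0.49 and -0.46, and ZNHIT1 near the short end at 0.38.

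Per length of exon, the members spanned a wide range. In the controls H2AFZ was at 8795 ± 916 normalized counts per kb (mean ± SD, n = 3), MORF4L2 at 5858 ± 159 and MORF4L1 at 3916 ± 106. ACTL6A (2779 ± 118) and H2AFY (2728 ± 108) came next on the same scale and did not differ beyond their spread. The ATPases of the common base, RUVBL2 and RUVBL1, were at 2379 and 1938 per kb. The large subunits that define the complexes were low, with SRCAP at 299, EP400 at 243, TRRAP at 141 and INO80 at 119. KAT5 stood at 224 and its TIP60 partner ING3 at 92.0 per kb. BRD8 went from 584 per kb in control to 237 in BRD8 siRNA libraries. H2AFV was at 1530 per kb, below H2AFZ, and H2AFX at 374. These levels depend on exon lengths merged over the transcripts that GENCODE tags as basic or CCDS, with rare exons of those transcripts counted.

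**Figure D4:**
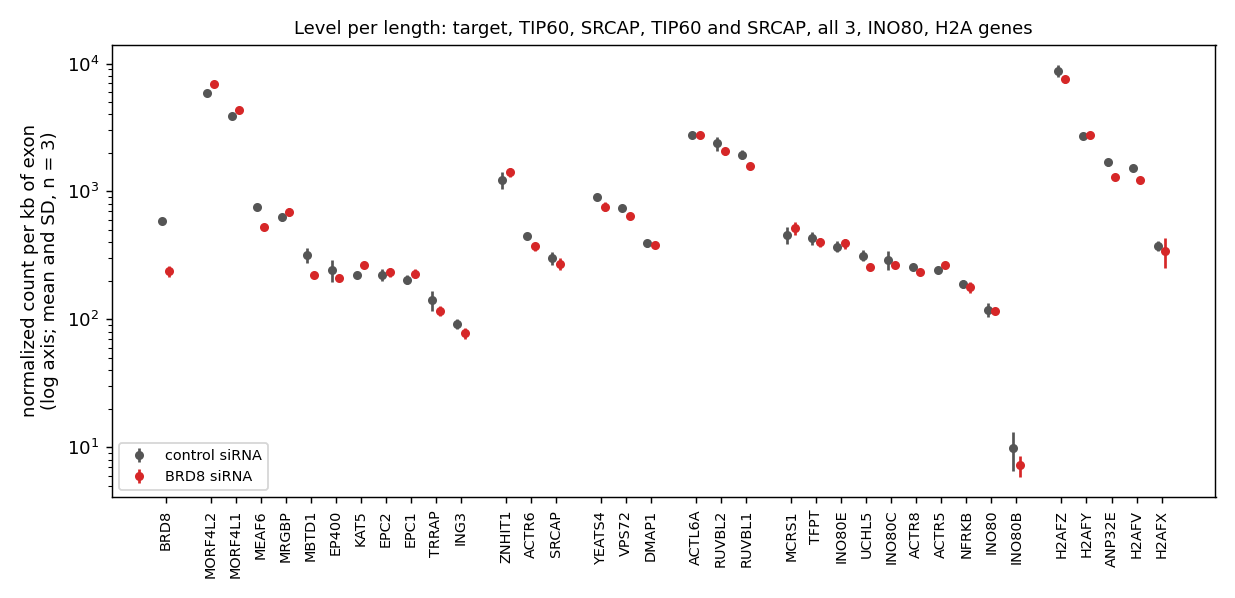
Normalized count per kb of exon (log axis, mean and SD, n = 3) for each of the 36 members in control (grey) and BRD8 siRNA (red) libraries, ordered within each complex by the control level. H2AFZ is the highest at 8795 and INO80B the lowest at 9.79 in the controls, and BRD8 shows the widest gap between the groups.

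Genes around the members were read from lists of neighbouring complexes and factors. Of 6 measured further subunits and H2A genes, ACTB, the actin found in these complexes, was higher (log2 fold change 0.39, SE 0.0939, limma adjusted p = 0.0211) and none was lower. This call was lost with no filter on low values, with quantile normalization, and without control library 1 or 3 or BRD8 siRNA library 2 or 3. Of 9 on that list, 3 H2AFB genes were below the filter. Of 15 readers and signalling factors of H2A.Z and H2AX, 2 were lower and none higher, or 13.3%, against 19.0% of all genes tested. RNF168, a ubiquitin ligase acting beside DNA breaks, fell from 2923 ± 178 to 2074 ± 74.1 (log2 fold change -0.49, SE 0.0756, limma adjusted p = 0.00318). EYA3, a phosphatase of H2AX, fell from 855 ± 30.4 to 686 ± 24.1 (log2 fold change -0.32, SE 0.0779, limma adjusted p = 0.0228). At an unadjusted p under 0.05, 3 of the 15 were lower and none higher, with 2 lower in edgeR and 3 in DESeq2. The shares of all genes were 33.1%, 19.3% and 21.3%. The number lower was 5 without control library 2 and 1 without any other library. Calls over all genes moved the same way, to 34.1% without control library 2.

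The complexes that share a subunit with these held few genes past the threshold, each with a share below the 19.0% of all genes tested. At an unadjusted p under 0.05 the share of all genes was 33.1%. By adjusted p it was 19.3% in edgeR and 21.3% in DESeq2. In BAF, which shares ACTL6A, 2 of 17 were lower: SMARCD1 (log2 fold change -0.37, SE 0.0915, limma adjusted p = 0.0232) and SMARCC2 (log2 fold change -0.26, SE 0.0699, limma adjusted p = 0.0326), with a list median of -0.15. None of the 17 was higher, at an unadjusted p under 0.05 as well, where 4 were lower, and edgeR gave 2 and DESeq2 4 lower. The number lower was 6 without control library 2, 1 without BRD8 siRNA library 1 and 0 without any other library. Calls over all genes also rose without control library 2, to 34.1%, and fell without each other library. In SAGA, which shares TRRAP, 0 of 18 passed, with 3 lower and none higher at an unadjusted p under 0.05, 0 in edgeR and 1 lower in DESeq2. In the R2TP group, which assembles complexes with RUVBL1 and RUVBL2, 0 of 10 passed, with 1 lower and none higher at an unadjusted p under 0.05 and 0 in edgeR and DESeq2. The medians were -0.05 for SAGA and -0.11 for R2TP.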

How the data were processed

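RNA-seq of 6 Calu3 libraries, 3 per siRNA, was analysed at the gene level. Per the submitters' processing notes, STAR 2.6, featureCounts 1.6.3, DESeq2 1.22.1 and hg19 were used; order and settings are not stated there. The deposited values are a signal, reads per gene that the authors scaled by 1 size factor per library, and 100% came out as whole reads within 0.01. The deposited log2 fold changes and adjusted p-values served only for comparison, and the score the authors deposited, their test statistic, was not used.

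Genes averaging at least 10 normalized counts were tested with limma 3.58.1 (R 4.3.3, trend) on log2(normalized count + 1), with Benjamini-Hochberg adjustment over 15354 genes and a threshold of 0.05. Fold changes on this scale understate those of low genes. edgeR 4.0.16 and DESeq2 1.42.0 were run on the recovered reads, and other alternatives were pseudocounts of 0.5 and 5, no filter or a mean of at least 50, quantile and TMM scaling, length and GC trends taken out, a replicate block and leaving out each library; the fit was tested on simulated data. Lengths and overlaps come from GENCODE 29, lengths over transcripts tagged basic or CCDS where present and overlaps over all annotated exons. No batch is given in the labels. All 36 members are named, and up to 4 genes of each context list by smallest adjusted p. The members and lists were chosen with earlier results of these data known.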

Additional observations from a re-analysis of the deposited data

How the results depend on the processing

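Of 594 log2 fold changes of the 35 genes other than BRD8 under the alternatives, 536 kept their direction and side of the threshold, 24 lost a call, 24 gained one and 10 changed sign, all of them without a call. BRD8 kept its call throughout. With length and GC trends taken out, 3 subunit genes were higher and 10 lower, 4 genes of the H2A group were lower, and 2328 of all genes were higher and 2821 lower, against 1, 4, 2, 1549 and 1371 in the reported analysis; the cause was not tested. Quantile normalization left 2 lower subunit genes. Leaving out 1 library at a time gave 0 to 5 higher and 1 to 8 lower subunit genes, 0 to 2 lower genes of the H2A group, and 832 to 2445 higher and 528 to 2784 lower genes in all. Sign changes outside these were INO80E (-0.042) and H2AFY (-0.052) with length and GC trends taken out, and ACTL6A with quantile normalization (0.0064). Over the fits without 1 library, EPC2 ran from -0.018 to 0.121 (below 0 without control library 2), DMAP1 from -0.078 to 0.019 (above 0 without control library 2), ACTL6A from -0.044 to 0.017 (above 0 without control library 3), INO80 from -0.144 to 0.030 (above 0 without control library 1 or 3 or BRD8 siRNA library 2) and H2AFX from -0.341 to 0.054 (above 0 without BRD8 siRNA library 1).

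Same-numbered libraries were not treated as pairs, as the labels do not say whether they belong together. The correlations of same-numbered deviations were -0.0845, 0.335 and 0.155. These cannot decide it, because differently numbered libraries were not compared in the same way. With the replicate number as a block, BRD8 stood at -1.30 (limma adjusted p = 2.47e-04), 1 subunit gene was higher and 6 were lower, 2 genes of the H2A group were lower, and 1939 of all genes were higher and 1962 lower. TRRAP (adjusted p = 0.0410) and UCHL5 (0.0302) passed under the block. Leaving INO80B out of the subunit median, an alternative chosen after seeing the data, gave -0.10 against -0.12. INO80B had no value at a mean of at least 50. Few reads limit the estimate for INO80B, whose levels lie within a few times the 3-read floor. The part of depth, and of the exon bases shared with INO80B-WBP1, in this low level was not tested.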
